A study of Mus musculus with 6 samples.

Results

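The mouse zinc finger genes on chromosome 13 were described here in cultured hepatocytes exposed to tumour necrosis factor (TNF), an inflammatory cytokine. They were taken as the genes of the deposited table whose symbol starts with Zfp followed by a digit and whose chromosome is 13, and this gave 33 of 19764 genes. The same symbol rule gave 316 genes on other chromosomes. The genes were chosen with the difference between TNF and control libraries in view, so that difference is given for them as a description: their calls in the fit over all genes are listed beside the share of all genes called, and support nothing.

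The libraries were made from polyadenylated RNA of primary mouse hepatocytes of strain Bl6/N, liver parenchymal cells isolated and held in short culture. All 6 cultures received 1 µM corticosterone, a glucocorticoid, and 10 µM WY-14643, an agonist of the nuclear receptor PPARα, so the controls carried both agents too. The 3 Control libraries came from cells that also received vehicle, and the 3 TNF libraries from cells that also received TNF at 1 ng/ml, in each case for 8 h after 16 h in starvation medium with 5 mM glucose. The age and sex of the animals, and whether replicates were separate animals or separate wells, were not given in the labels, so p-values measure the spread between these samples, which may be technical.

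Most genes of this name encode proteins with an array of C2H2 zinc fingers that bind DNA. Many of them also carry a KRAB domain, which recruits the corepressor TRIM28 (KAP1) and the histone methyltransferase SETDB1 to silence chromatin. KRAB zinc finger genes arise by tandem duplication and lie in clusters, and neighbours in a cluster often share much of their sequence. In the mouse, the chromosome 13 cluster holds the regulator of sex-limitation (Rsl) genes, which are known for repressing male-biased liver genes such as Slp (C4a), major urinary protein (Mup) genes and Cyp2d9.

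Library depth lay between 17612060 and 25114289 reads counted to genes, and 3 reads corresponded to 0.124 to 0.166 CPM, the read count scaled to library depth. The labels describe the table with the term iRNA and do not say whether reads in exons, introns or both were counted. The deposited counted length equalled the whole gene span, introns included, for 85.0% of genes. A CPM value here can therefore hold intronic signal and is not a measure of mature mRNA alone. Exonic reads were counted at least in genes without introns, since 64 of the 143 genes tested that have a single exon in GENCODE M21 had a mean above 10 CPM. Albumin and the other 7 hepatocyte markers summed to between 29540 and 49040 CPM in Control and between 28150 and 44400 CPM in TNF libraries. Most of that sum is albumin. The fit with the replicate block called 4 of the 8 as lower with TNF, where it called 11.2% of all genes as lower. Cps1 fell by 1.43 in log2 (limma, adjusted p = 2.71e-11 with the block and 0.204 without), Hnf4a by 0.43 (3.06e-07 and 0.177), Apoa1 by 0.26 (0.000388 and 0.658) and Ttr by 0.11 (0.0461 and 0.990). Hnf4a was at 622.7, 558.1 and 514.9 CPM in Control and at 459.4, 402.2 and 392.6 CPM in TNF libraries. Its TNF libraries were all below its Control libraries, as were those of 6.66% of all genes tested. Summed levels of 7 macrophage markers were 143.6 to 231.2 CPM in Control and 146.3 to 233.2 CPM in TNF, those of 6 endothelial markers 73.8 to 138.8 and 69.9 to 128.0 CPM, and those of 5 stellate cell markers 18.1 to 67.7 and 19.6 to 45.6 CPM. Only 1 macrophage marker had enough reads to be tested, so that sum rests mostly on 1 gene. For endothelial and stellate cell markers, 5 and 4 were tested. The sum of 5 cholangiocyte markers was 25.3 to 34.9 CPM in Control and 32.4 to 54.4 CPM in TNF, and 6 lymphocyte and neutrophil markers stayed below 1 CPM in sum, with Nkg7 at 0 in all libraries. The part of these markers in the results was not tested, and in bulk RNA fewer cells of a type cannot be told apart from less RNA per cell.

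The 33 genes fell into 10 groups when a gap of more than 1 Mb between neighbours started a new group. The large cluster held 21 of them between chr13:67038594-67789080 (mm10), a stretch of 0.75 Mb in which 18 genes lay on the minus strand and 3 on the plus strand. A group of 3 (Zfp808, Zfp935 and Zfp934) lay between chr13:62129890-62558599, and Zfp72 and Zfp825 formed a pair between chr13:74371426-74493950. The other 7, Zfp184, Zfp169, Zfp346, Zfp367, Zfp369, Zfp366 and Zfp131, stood alone. Of the 33 genes, 14 carry an Rslcan (Rsl candidate) name as a RefSeq synonym, among them Zfp456 (Rslcan-13) and Zfp458 (Rslcan-7), and Zfp429 has the synonym Rsl2. Rsl1 itself and Rslcan18 lie inside the large cluster under names the symbol rule did not take, and they are given beside the members.

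In the large cluster, Zfp429, Zfp456 and Rsl1 were higher in every TNF library than in any Control library, as were 6.59% of all genes tested. No other gene of the cluster was. The RefSeq (GRCm38.p6) sequences just before the start of these 3 genes are shown because those of Zfp456 and Rsl1 were closer to that of Zfp429 than any other promoter in the table. Each runs 5′ to 3′ over the 250 bases before the RefSeq start. Capitals mark a match to the κB motif, the site that NF-κB proteins bind, in Zfp429 and Rsl1, and the aligned bases in Zfp456. The Zfp429 sequence is chr13:67399768-67400017 on the minus strand, that of Zfp456 is chr13:67375764-67376013 on the minus strand, and that of Rsl1 is chr13:67172932-67173181 on the plus strand.
Zfp429: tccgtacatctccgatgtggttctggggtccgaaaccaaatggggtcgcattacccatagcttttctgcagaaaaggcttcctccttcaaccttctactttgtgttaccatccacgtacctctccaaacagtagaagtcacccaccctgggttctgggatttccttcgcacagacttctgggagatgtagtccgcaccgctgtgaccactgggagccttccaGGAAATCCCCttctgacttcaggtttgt
Zfp456: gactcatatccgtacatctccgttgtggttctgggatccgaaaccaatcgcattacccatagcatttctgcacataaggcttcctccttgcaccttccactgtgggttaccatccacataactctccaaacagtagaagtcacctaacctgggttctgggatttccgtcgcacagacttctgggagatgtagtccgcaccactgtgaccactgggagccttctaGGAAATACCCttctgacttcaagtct
Rsl1: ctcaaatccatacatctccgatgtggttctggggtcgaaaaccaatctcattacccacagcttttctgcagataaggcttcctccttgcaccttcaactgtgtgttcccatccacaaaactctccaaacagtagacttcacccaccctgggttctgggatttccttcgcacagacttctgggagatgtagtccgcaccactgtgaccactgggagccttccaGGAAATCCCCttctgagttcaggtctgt

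The adjacent genes Zfp953, at chr13:67360573-67360822 on the minus strand, and Zfp459, at chr13:67421419-67421668 on the minus strand, are shown for contrast, with no base in capitals. They flank the Zfp456 and Zfp429 pair on either side, and their log2 differences between TNF and Control were 0.04 and 0.11.
Zfp953: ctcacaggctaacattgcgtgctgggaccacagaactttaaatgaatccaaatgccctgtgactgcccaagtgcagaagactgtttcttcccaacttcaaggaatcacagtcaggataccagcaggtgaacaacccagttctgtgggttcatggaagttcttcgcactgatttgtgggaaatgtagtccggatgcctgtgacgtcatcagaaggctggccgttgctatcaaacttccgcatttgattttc
Zfp459: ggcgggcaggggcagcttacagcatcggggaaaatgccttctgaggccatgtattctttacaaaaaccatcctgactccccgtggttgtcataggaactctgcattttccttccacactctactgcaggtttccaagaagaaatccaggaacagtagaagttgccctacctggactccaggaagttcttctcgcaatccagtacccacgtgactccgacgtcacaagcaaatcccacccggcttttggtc

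Zfp429 lies at chr13:67389328-67399767 on the minus strand, with 5 exons in the GENCODE M21 annotation. It was read at 4.64, 3.76 and 3.46 CPM in Control replicates 1, 2 and 3 and at 9.19, 7.73 and 6.31 CPM in TNF replicates 1, 2 and 3. The lowest TNF library stood above the highest Control library, and within each replicate number the TNF library was the higher. The means were 3.95 ± 0.61 CPM in Control and 7.74 ± 1.44 CPM in TNF (SD, n = 3 each), a ratio of 1.96. On the log2(CPM + 1) scale, which understates the change of low genes, the difference was 0.81 with a standard error of 0.17, or 0.11 when the replicate number was taken into account. The 3 pair differences were 0.85, 0.87 and 0.71. These values rest on 710 reads over the 6 libraries, between 71 and 192 in each.

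Zfp456 lies at chr13:67363584-67375763 on the minus strand, with 4 exons, and is separated from Zfp429 by 13.6 kb. Its levels were 1.82, 2.07 and 2.04 CPM in the Control libraries and 3.64, 3.54 and 4.19 CPM in the TNF libraries. Here too the groups did not overlap, and the 3 Control libraries were closer to each other than in Zfp429. The means were 1.98 ± 0.14 CPM in Control and 3.79 ± 0.35 CPM in TNF (SD, n = 3 each), a ratio of 1.92. The log2(CPM + 1) difference was 0.68 with a standard error of 0.14, or 0.12 with the replicate number in the fit, and the pairs gave 0.72, 0.57 and 0.77. Zfp456 had 352 reads in all, between 33 and 85 in each library.

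Rsl1, which encodes a KRAB zinc finger repressor, is not a member by symbol but lies in the same cluster at chr13:67173182-67183498 on the plus strand, with 4 exons. Control libraries had 9.34, 8.40 and 7.98 CPM and TNF libraries 12.97, 14.7 and 12.7 CPM. The groups did not overlap, and the means were 8.57 ± 0.69 CPM and 13.4 ± 1.07 CPM (SD, n = 3 each), a ratio of 1.57. The log2(CPM + 1) difference of 0.59 had a standard error of 0.09 when the replicate number was a block, and in that fit Rsl1 rose (limma, Benjamini-Hochberg adjusted p = 0.000399), while without the block limma gave an adjusted p of 0.110. Over the alternatives tried, the adjusted p of Rsl1 lay between 2.09e-06 and 0.0121 in 10 limma fits with the block and between 0.0999 and 0.394 in 13 without it. In the authors' deposited table the log2 fold change was 0.97 for Zfp429, 0.93 for Zfp456 and 0.65 for Rsl1, on a scale that differs from log2(CPM + 1).

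**Figure D1:**
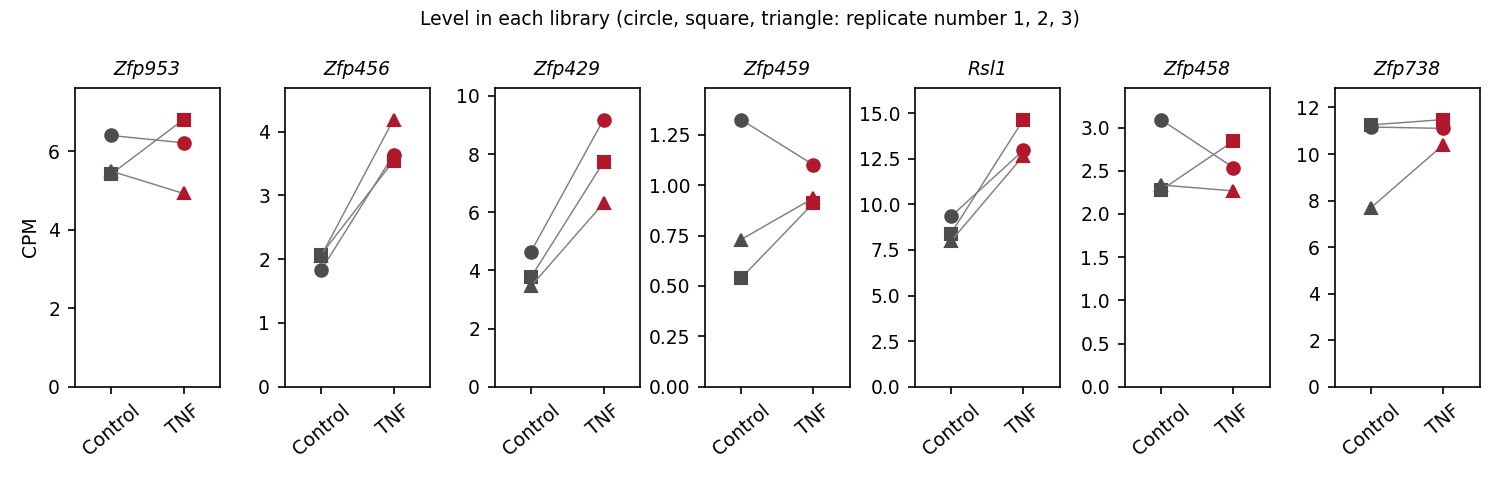
Level of 7 genes in each library, in CPM with each vertical axis starting at 0, for Control and TNF replicates 1 to 3. Lines join libraries of the same replicate number, and for Zfp429, Zfp456 and Rsl1 every TNF point lies above every Control point.

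Among all 12293 genes tested, ranked from the highest log2 difference, Zfp429 was at rank 83, Zfp456 at rank 127 and Rsl1 at rank 158. No member was called in the unpaired fit, in which 0.431% of all genes were called, and the difference of 2 members had an unadjusted p under 0.05; limma-voom on whole reads without the block also called 0. The fit that blocked on replicate number called 2 of the 32 members tested as higher and 0 as lower, where it called 9.4% of all genes as higher and 11.2% as lower. The members called were Zfp456 and Zfp429. The same pair were the members whose TNF libraries all exceeded the Control libraries, which 6.59% of all genes did, and no member showed the opposite, which 6.66% of all genes did. Because the genes were chosen on this contrast, nothing is read from these shares.

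Zfp458 and Zfp738, which lie at chr13:67254918-67269068 and chr13:67667441-67683512 on the minus strand, did not separate the groups. Zfp458 was at 3.09, 2.28 and 2.34 CPM in Control and 2.54, 2.84 and 2.27 CPM in TNF libraries, a log2 difference of -0.003. Its highest value was in a Control library and its lowest in a TNF library. Zfp738 was at 11.2, 11.3 and 7.69 CPM in Control and 11.1, 11.5 and 10.4 CPM in TNF libraries, a log2 difference of 0.14. Control replicate 3 was low and the other 5 libraries lay close together.

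The remaining genes of the large cluster lay close to zero difference. Without Zfp429, Zfp456 and Rsl1, the other 20 genes between Zfp712 and Zfp493, Rslcan18 included, had log2 differences from -0.21 to 0.17 with a median of 0.06, and the blocked fit called none of them. Zfp953 and Zfp459, which border the Zfp456 and Zfp429 pair at distances of 3.0 kb and 5.9 kb, were within this range. Zfp953 was at 6.41, 5.42 and 5.50 CPM in Control and 6.22, 6.81 and 4.93 CPM in TNF libraries, and Zfp459 at 1.33, 0.538 and 0.730 CPM in Control and 1.10, 0.912 and 0.936 CPM in TNF libraries. Both neighbours overlapped between groups, and Zfp953 was named for its position after its values were seen.

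**Figure D2:**
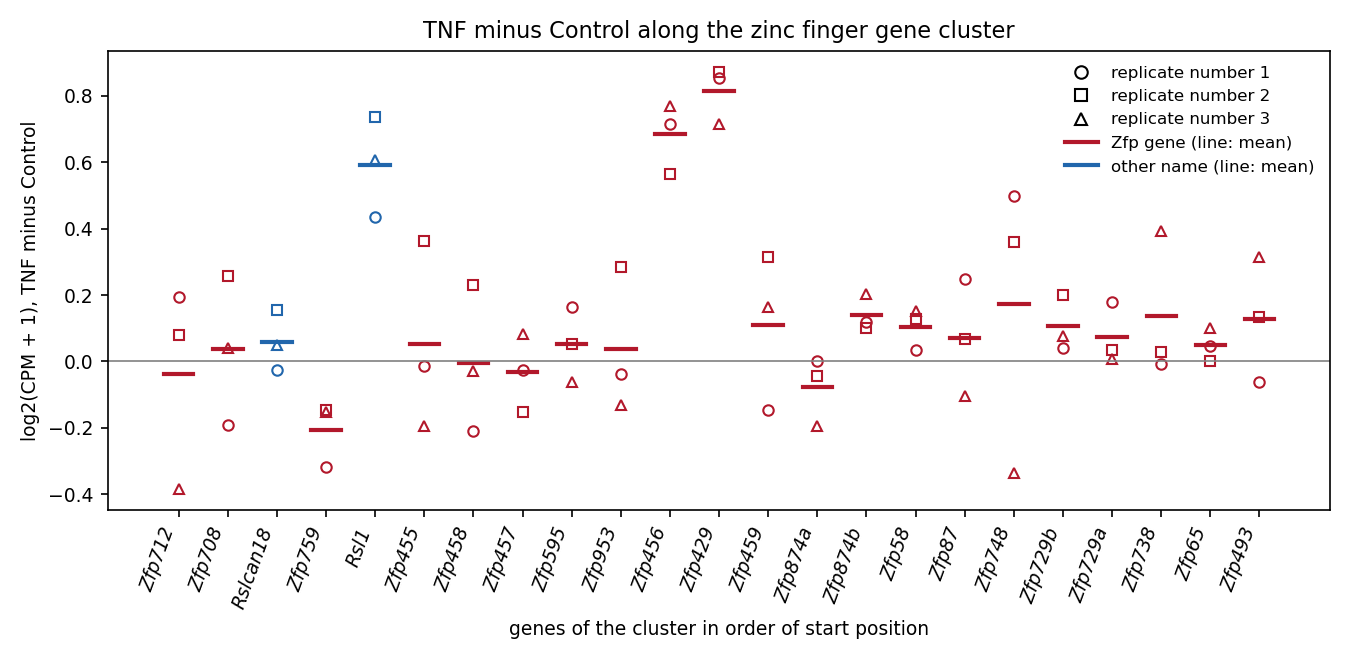
Difference between TNF and Control (log2(CPM + 1)) of the genes of the large cluster along chromosome 13, with the 3 pair differences and the mean of each gene. Zfp456 at 0.68, Zfp429 at 0.81 and Rsl1 at 0.59 stand above the other 20 genes, which lie between -0.21 and 0.17.

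At the lower end, Zfp759 was at 5.08, 4.80 and 3.50 CPM in Control and 3.88, 4.24 and 3.06 CPM in TNF libraries, a log2 difference of -0.21. It was the member that was lower in all 3 pairs, though its groups overlapped. Zfp748 had 3.98, 5.54 and 6.42 CPM in Control and 6.03, 7.40 and 4.88 CPM in TNF libraries, a log2 difference of 0.17. It was higher in pairs 1 and 2 and lower in pair 3, by pair differences of 0.50, 0.36 and -0.34, and it was called by the blocked fit when replicate number 3 was left out and in no other fit. Zfp493 was at 5.19, 4.22 and 3.65 CPM in Control and 4.93, 4.72 and 4.78 CPM in TNF libraries, a log2 difference of 0.13. In this gene the TNF libraries were close together and lay within the range of the Control libraries.

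Zfp874a and Zfp874b, adjacent genes of related sequence, differed in direction but by little. Zfp874b was at 18.9, 17.2 and 14.5 CPM in Control and 20.6, 18.5 and 16.8 CPM in TNF libraries, a log2 difference of 0.14, and was higher in all 3 pairs. Zfp874a was at 26.6, 23.9 and 23.0 CPM in Control and 26.7, 23.1 and 19.96 CPM in TNF libraries, a log2 difference of -0.08. For both genes the groups overlapped. Zfp729b was at 16.3, 14.8 and 13.8 CPM in Control and 16.8, 17.1 and 14.6 CPM in TNF libraries, a log2 difference of 0.11. Zfp58 was at 8.40, 8.27 and 6.47 CPM in Control and 8.61, 9.12 and 7.30 CPM in TNF libraries, a log2 difference of 0.10. Both were higher in all 3 pairs, again with overlapping groups.

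None of the members outside the large cluster separated the groups. Zfp131 was the most abundant, at 57.5, 77.9 and 68.7 CPM in Control and 57.8, 84.9 and 64.4 CPM in TNF libraries, a log2 difference of 0.01. Zfp367 was at 34.8, 40.4 and 35.2 CPM in Control and 32.7, 45.0 and 36.2 CPM in TNF libraries, a log2 difference of 0.04. In both genes replicate 2 was the highest library of its group. Zfp369 was at 26.2, 20.3 and 17.4 CPM in Control and 24.4, 22.9 and 18.7 CPM in TNF libraries, a log2 difference of 0.05, and replicate 3 was the lowest in either group. Zfp184 was at 1.05, 0.951 and 0.681 CPM in Control and 1.10, 1.40 and 0.986 CPM in TNF libraries, a log2 difference of 0.19. Zfp72 was at 3.98, 3.23 and 2.43 CPM in Control and 3.35, 4.72 and 2.56 CPM in TNF libraries, a log2 difference of 0.10. Neither separated the groups, although Zfp184 was higher in all 3 pairs.

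The 15 tested members outside the rule for named genes, Zfp953 among them, had mean levels between 1.16 and 23.7 CPM and log2 differences between -0.04 and 0.08. Zfp366 was not tested because of its low reads, at 0.166, 0.166 and 0.535 CPM in Control and 0.191, 0.483 and 0.246 CPM in TNF libraries. Each of these values rests on 3 to 11 reads, and no difference between groups was detectable at this depth.

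As a whole, the 32 members tested had a median log2 difference of 0.06, with 26 above zero and 6 below, and 30 lay within 0.25 of zero. The median over all genes was -0.01, with 46.1% above zero. The 284 zinc finger genes tested on other chromosomes had a median of 0.002 and a range from -0.63 to 0.52, so that Zfp429 and Zfp456 were above each of them. The blocked fit called 16 of those 284 as higher and 6 as lower. Of all genes it called 9.4% as higher and 11.2% as lower. Without the block, limma and limma-voom called 0 of the 284, and in the unpaired fit 6 higher and 4 lower genes had an unadjusted p under 0.05. The members' median followed single libraries: it was 0.12 without Control replicate 1 or without TNF replicate 3, and 0.001 without Control replicate 3. The pair medians were 0.004, 0.12 and 0.07.

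**Figure D3:**
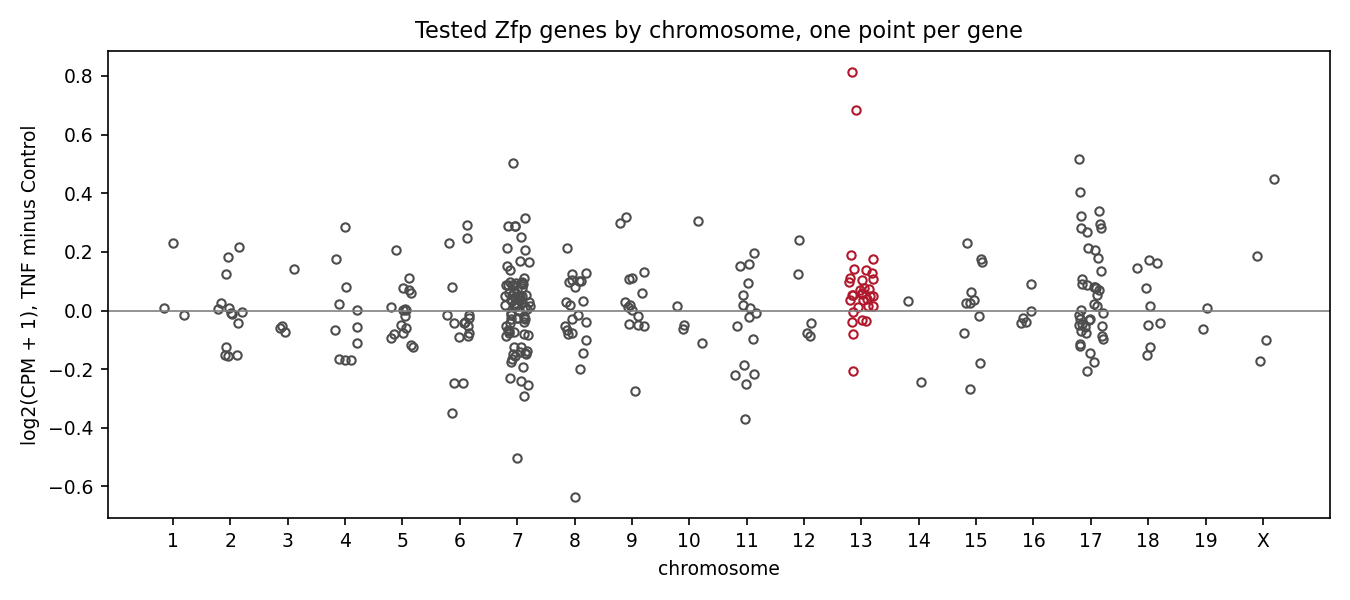
Difference between TNF and Control (log2(CPM + 1)) of each tested zinc finger gene by chromosome, 1 point per gene. On chromosome 13, Zfp429 at 0.81 and Zfp456 at 0.68 lie above all 284 genes of the other chromosomes, of which the highest is at 0.52.

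Levels between genes were compared per kilobase of counted length. Nearly all members, 32 of 33, were counted over the whole gene span, introns included, so a level per kilobase is that of a span and not of a transcript. Zfp131 was the highest at 2.64 ± 0.43 CPM per kb, then Zfp874a at 2.13 ± 0.23, Zfp367 at 1.86 ± 0.22, Zfp874b at 1.39 ± 0.16 and Zfp369 at 1.14 ± 0.18 CPM per kb (SD over all 6 libraries). Zfp367 exceeded Zfp874b by more than the sum of their SDs, whereas Zfp131 and Zfp874a, Zfp874a and Zfp367, and Zfp874b and Zfp369 differed by less than that sum. Zfp429 was at 0.56 CPM per kb and rank 16, Zfp456 at 0.24 and rank 24, and Rsl1 at 1.07 CPM per kb. Zfp366 was the lowest at 0.005 CPM per kb.

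**Figure D4:**
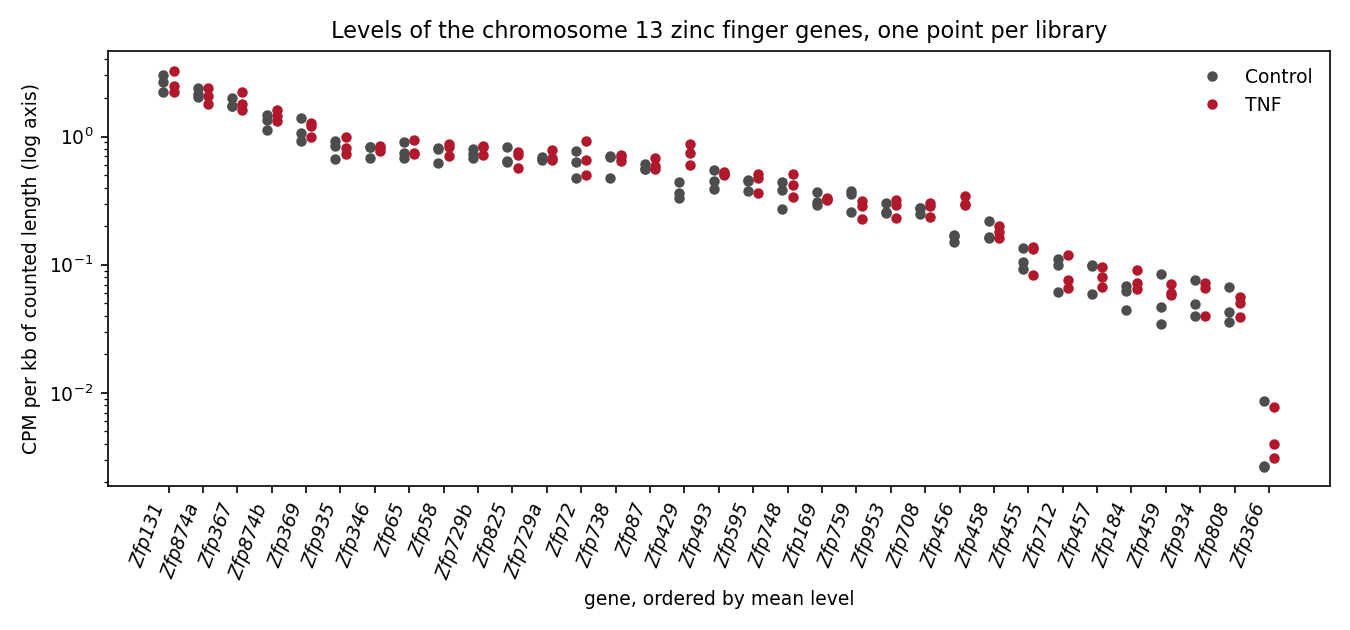
Level of each of the 33 members per kilobase of counted length, in CPM per kb on a log axis, 1 point per library, with Control and TNF libraries in separate colours. Zfp131 is the highest at 2.64 CPM per kb and Zfp366 the lowest at 0.005 CPM per kb, and the groups overlap for all members but Zfp429 and Zfp456.

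The members also differed between replicate numbers. Averaged over the groups, the levels of the 32 members tested had a median range of 0.32 between the 3 replicate numbers on the log2(CPM + 1) scale. The lowest level was in number 3 for 21 members and the highest in number 1 for 20. Summed over all members, the level was 361.9, 363.9 and 323.7 CPM in Control and 370.3, 395.3 and 335.0 CPM in TNF libraries, so replicate 3 was the lowest in each group. Among 12261 other genes, those whose level followed this sum most closely over the 6 libraries were Ghitm (Pearson r = 0.996), Ikbkap (0.994), Hnrnpa2b1 (0.994), A230046K03Rik (0.993) and Celf1 (0.993), given as a description of 6 points that share library depth and replicate origin.

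Among genes of other names inside the smaller groups, Gm3604 lies between Zfp808 and Zfp935. It had 18, 7 and 7 reads in Control and 30, 24 and 16 reads in TNF libraries, which gave a log2 difference of 0.51. The groups overlapped, since TNF replicate 3 had fewer reads than Control replicate 1. Gm3604 rose in the blocked fit (limma, adjusted p = 0.0274) and did not pass without the block (adjusted p = 0.625). Over the alternatives, its adjusted p with the block lay between 0.0232 and 0.244, and 7 of 8 such fits called it. Rslcan18, in the large cluster, had a log2 difference of 0.06 and did not pass in either limma fit (adjusted p = 0.999, or 0.754 with the block). Of all chromosome 13 genes that are not members, Rsl1, Gm3604 and Rslcan18 included, 420 were tested. The blocked fit called 40 of them as higher and 40 as lower. Over all genes, the shares it called were 9.4% and 11.2%.

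The likeness of the promoters printed above was measured with a local alignment of 300 bases, from 250 before to 50 after the RefSeq start, against all 32851 promoters of 27025 genes in the RefSeq table. Zfp429 was taken as the reference after its level had been seen. Its best match in the whole table was Zfp456, with 92.1% identity over 292 aligned bases and a score of 241.5, and the next was Rsl1, with 91.5% identity over 294 aligned bases and a score of 239.5. Zfp456 and Rsl1 were 89.6% identical to each other. The third match was Gm10037, also on chromosome 13, with a score of 78.5, 75.1% identity and a log2 difference of -0.13. After it came Zfp455 with a score of 67 and a log2 difference of 0.05 and Zfp58 with 61 and 0.10. The 12 best matches all lay on chromosome 13, and the median score over all promoters was 14. Gm3604, with a log2 difference of 0.51, had a score of 15. Of the 33 members, 27 had a promoter in the table.

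**Figure D5:**
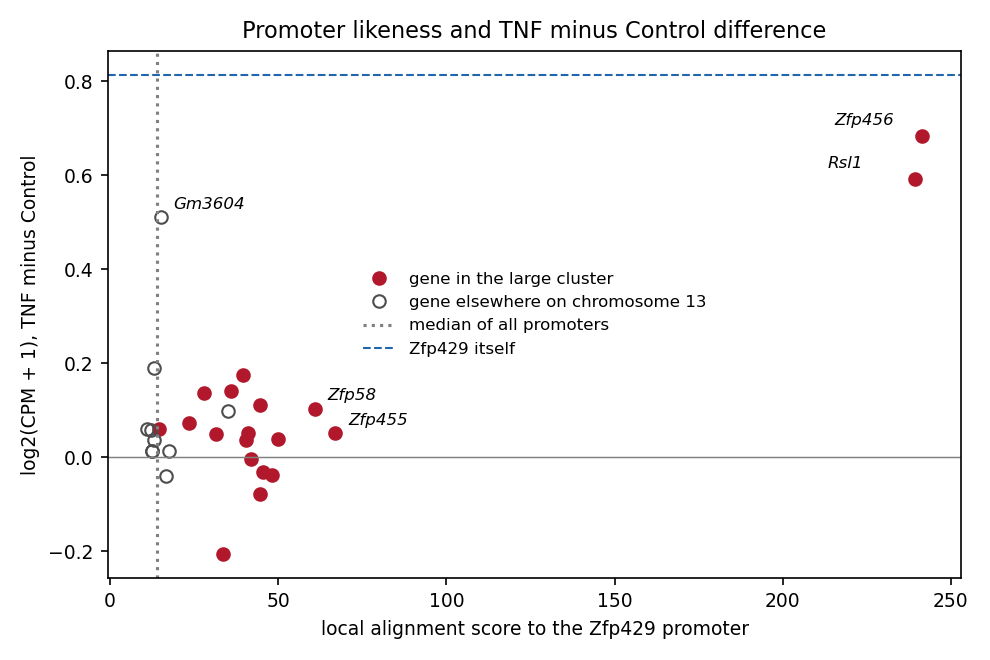
Local alignment score of each promoter to that of Zfp429 (horizontal axis, no unit) against the gene's difference between TNF and Control (log2(CPM + 1)), 1 point per chromosome 13 zinc finger gene or gene inside a cluster. Zfp456 and Rsl1 lie at scores of 241.5 and 239.5 with differences of 0.68 and 0.59, and the other genes of the large cluster lie at scores of 67 or less. Gm3604, outside the large cluster, lies at a score of 15 with a difference of 0.51.

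A set of 8 motifs, chosen after the levels had been seen, was searched on both strands of the 300 bases. The κB motif was in 4.51% of all promoters and in 2 of the 20 large-cluster genes with a promoter, Rsl1 and Zfp429. In both it lay 28 to 19 bases before the RefSeq start on the minus strand and read GGGGATTTCC, which is the reverse complement of the printed capitals. The GENCODE start lies 52 bases upstream of the RefSeq start for Zfp429 and 47 for Zfp456. By GENCODE, the match of Zfp429 and the aligned bases of Zfp456 therefore lie after the start. For Rsl1 the GENCODE and RefSeq starts are the same. Outside the large cluster, the member Zfp131 also had a match, 223 to 214 bases before its start, and its log2 difference was 0.01. The aligned bases of Zfp456, 26 to 17 bases before its RefSeq start, read GGAAATACCC where those of Zfp429 read GGAAATCCCC. That is the substitution C7A, counted from 1 at the 5′ end of the 10 capitals of Zfp429, and Zfp456 had no match to the motif as searched. The motif TTCNNNGAA, a STAT site, overlaps the κB match in Zfp429 and Rsl1; it was in 8.3% of all promoters and in 13 of the 20 cluster genes, Zfp456 and the neighbours Zfp953 and Zfp459 among them. The GC box GGGCGG was in 35.7% of all promoters and in 3 cluster genes, Rsl1, Zfp429 and Zfp456, in each case after the start. The AP-1 motif TGANTCA was in 7.81% of promoters and in Zfp458, and the YY1 motif GCCATNTT in 6.05% and in Rslcan18. The interferon response element ISRE (3.44% of promoters), the C/EBP motif TTGCGCAA (0.183%) and a longer YY1 core (0.633%) were in 0 of the 20 cluster genes. A match is a description of letters and not evidence of binding, and where a motif did not match, nothing follows about the factor.

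Duplicated genes of this kind can share reads, and how shared reads were counted was not given in the sources used here. Of the 50-base stretches of the transcripts, 25.3% of those of Zfp429 were also found in transcripts of other genes, 20.6% in those of Rsl1. For Rsl1 the share was 26.2%, with 16.7% in Zfp429, and for Zfp456 it was 16.5%, with 8.73% in Rsl1. These shares are over spliced transcripts, while reads were counted over spans of which 20.3% (Zfp429), 25.1% (Rsl1) and 33.9% (Zfp456) is exonic. Sharing over the introns was not measured, so the levels of these 3 genes are uncertain by an amount not known. For Zfp708 all stretches (100%) were found in the read-through model Gm28557 and for Zfp935 99.2% in the overlapping same-strand model Gm49359. For Zfp58 the share was 50.2%, all of it found in the overlapping same-strand model Gm26965. For Zfp729b it was 40.8%, with 40.4% in the overlapping same-strand model Gm49345. For Zfp808 it was 46.4%, with 35.05% in Zfp934, and for Zfp934 it was 41.6%, with 36.6% in Zfp808. In addition, Zfp456 overlaps the same-strand read-through model Gm28041 over 12150 bases and the antisense gene Gm17039 over 2096 bases. Gm28041 also covers part of Zfp953, over 15327 bases. Zfp429 overlaps the antisense gene Gm48900 over 9293 bases. The strand setting of the counting was not given, so reads of these genes and of their antisense partners cannot be told apart.

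The cofactors through which KRAB proteins silence chromatin, and other silencing genes such as Zfp57, were followed in a list of 27 symbols. In it, Tasor and Fam208a name the same gene, which was tested as Fam208a. Of these, 25 were in the table and tested, 22 of them with a log2 difference within 0.25 of zero. With the replicate block 2 rose and 1 fell, where the fit called 9.4% of all genes as higher and 11.2% as lower, and the median log2 difference was 0.05. Without the block 0 passed in limma or in limma-voom, and 1 had an unadjusted p under 0.05. Morc3, which encodes a chromatin ATPase, rose by 0.35 in log2 (limma with block, adjusted p = 2.85e-05, and 0.0744 without). Morc2a, which encodes an ATPase that works with the HUSH silencing complex, rose by 0.27 (adjusted p = 0.000891 in limma with block, and 0.743 without). Ehmt2, the H3K9 methyltransferase G9a, fell by 0.14 (adjusted p = 0.00924 in limma with block, and 0.678 without). Trim28, the corepressor itself, had a log2 difference of -0.04 (adjusted p = 0.403 in limma with block, and 0.998 without), and Setdb1 one of -0.04 (0.645 and 0.999). Zfp57, an imprint-binding KRAB zinc finger gene on another chromosome, had a log2 difference of 0.27 (adjusted p = 0.203 in limma with block, and 0.893 without), and Uhrf1, a cofactor of maintenance methylation, one of 0.22 (0.281 and 0.980).

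Genes known as targets of the Rsl proteins, and C4b beside C4a, were followed in a list of 17, of which 14 were in the table and 12 were tested. With the block 3 fell and 0 rose, where 11.2% of all genes fell, beside a median log2 difference of -0.05, and without it 0 passed in limma or limma-voom and 0 had an unadjusted p under 0.05. C4a, which encodes the sex-limited protein Slp, was at 14.97, 10.7 and 21.7 CPM in Control and 11.5, 8.59 and 17.0 CPM in TNF libraries. It was lower with TNF in all 3 pairs and fell by 0.33 (limma with block, adjusted p = 0.0107, and 0.939 without), while the groups overlapped. Cyp2d9, a male-biased steroid hydroxylase, was at 195.5, 213.7 and 279.8 CPM in Control and 176.6, 158.9 and 257.6 CPM in TNF libraries. It too was lower in each pair and fell by 0.23 (adjusted p = 0.00367 in limma with block, and 0.931 without). C4b, complement component 4, which is not one of the targets named above, fell by 0.14 (adjusted p = 0.00603 in limma with block, and 0.955 without). None of the 9 Mup genes tested passed in either fit. Mup16 had a log2 difference of -0.15 and Mup8 one of -0.14, and Mup17 and Mup19 had too few reads to be tested. The C4, Cyp2d and Mup genes are families of near-identical copies, so their levels are uncertain where reads can be shared.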

How the data were processed

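Values were measured in 6 RNA-seq libraries, 3 Control and 3 TNF. Reads were aligned with STAR 2.6.1a to mm10, per the submitters' processing notes; the counter, its annotation and its use of strand were not stated in any source used here. The authors deposited log2 CPM per library with a prior count (lowest value -3.35), and per the file headers also a log2 fold change, a score from a likelihood ratio, p-values, raw and adjusted, for their own comparison, and gene and counted lengths in bases. After the prior was subtracted, 100% of 118584 values were whole multiples of 1 read (tolerance 1e-06), and the authors' library scaling was kept. All p-values here were computed anew.

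CPM values were tested as log2(CPM + 1) with limma 3.58.1 in R 4.3.3 (trend, two-sided, Benjamini-Hochberg threshold 0.05) over the 12293 genes with 15 reads in all and, at the median depth, 10 or more in 3 libraries. The test was checked on simulated counts that held no difference between replicate numbers, so that check does not cover this feature of the data. The replicate number was not in the unpaired fit and was a block in the other. Same-numbered libraries deviated together (correlations 0.807, 0.806 and 0.812, against -0.488 to -0.332 for other pairs), so the numbers, taken from the sample titles, pair the samples and blocked values are printed beside results they change. Alternatives were another pseudocount, other filters and scalings, limma-voom on the recovered reads and leaving out libraries.

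Members and lists were chosen with earlier results of these data known. Values by library are given for Zfp456, Zfp458 and Zfp738, the 5 other members highest per kilobase and the 10 others with the largest difference; other genes inside the groups past 0.5 or called; Zfp953 as a neighbour, chosen after its values were seen; and of the 2 lists Trim28, Setdb1, the 4 largest differences and any called. Promoter sequences are from RefSeq (GRCm38.p6), and were aligned with Biopython 1.88 (match 1, mismatch -1, gap opening -2, extension -0.5). Exons and overlaps are from GENCODE M21. The GENCODE start lies 52 bases upstream of the RefSeq start for Zfp429, 47 for Zfp456 and 0 for Rsl1.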

Additional observations from a re-analysis of the deposited data

How the results depend on the processing

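Over 23 settings the log2 difference lay between 0.62 and 0.93 for Zfp456 and between 0.70 and 0.97 for Zfp429, as a description. Over all genes the count was 53 without the block and 46 to 56 under the other unpaired settings, except 31 with no filter and 9 to 30 with 1 library left out. With the replicate block, which pairs the samples, it was 2530, then 2497 with pseudocount 0.1, 1743 with no filter, 2516 at 1 CPM, 2572 with median-of-ratios scaling, 2491 with library totals, 2520 with limma-voom, and 2309, 1792 and 2158 without replicate number 1, 2 or 3. Chromosome 13 members called went from 0 to 2 in each blocked setting, and 2, 2 and 3 without a number. Zinc finger genes elsewhere went from 0 to 22 with the block, 23 with pseudocount 0.1 or at 1 CPM, 12 with no filter, 26 with median-of-ratios scaling, 22 with totals or limma-voom, and 19, 12 and 18 without a number. Genes of the KRAB list went from 0 to 3 with the block, 4 under both other scalings, and 2 to 4 without a number. Those of the Rsl list went from 0 to 3, 2 with no filter, and 2 to 3 without a number. Signs turned for Trim28 (-0.11 to 0.0081 over libraries left out, positive without TNF replicate 1), Setdb1 (-0.10 to 0.071, positive without Control replicate 2, 0.0052, or TNF replicate 3, and 0.010 with the block without number 3), Mup16 (-0.38 to 0.097, positive without TNF replicate 2, and 0.048 with the block without number 2) and Mup8 (-0.42 to 0.11, positive without Control replicate 1 or, at 0.097, TNF replicate 2); the cause was not tested. Where 1 library is left out, the estimate rests on fewer samples. Depth limits members near 1 CPM.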
